A study of Homo sapiens with 6 samples.

Results

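MHC class I antigen presentation was followed through 9 genes: the heavy chains HLA-B, HLA-C, HLA-E and HLA-F, their light chain B2M, the peptide transporter subunits TAP1 and TAP2, the loading factor TAPBP (tapasin), and the transcriptional coactivator NLRC5. They were chosen by name, as the rows bearing exactly these gene symbols, and make up 9 of the 44591 genes counted in each library. RNA came from A2780, a cell line of human ovarian cancer with a wild-type genotype label, grown in DMEM with fetal bovine serum. Of the 6 libraries of polyadenylated RNA, 3 were untreated and 3 were from cells that received human recombinant CRMP2 (r-CRMP2) in the medium at 40 ng/ml, and both groups carry a 48 h label. CRMP2 is a microtubule-associated protein that the study followed as a factor secreted by cancer-associated fibroblasts, and the comparison asks which transcripts changed in tumor cells exposed to it. All results are from 1 cell line, and nothing says that the replicates were separate cultures, so p-values measure only the spread between these libraries, which may be technical.

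Class I molecules display short peptides from the cell's own proteins to CD8 T cells, and they also engage inhibitory receptors of natural killer cells. Proteasomes cut the peptides, the TAP1-TAP2 transporter carries them into the endoplasmic reticulum, and tapasin with the chaperones calreticulin, calnexin and ERp57 loads them onto heavy chains bound to beta-2-microglobulin. Transcription of the heavy chain and B2M genes is driven by NF-kB, interferon-responsive and SXY promoter elements, the last of which are bound by the RFX, CREB/ATF and NF-Y factors that recruit NLRC5. Tumors often lose parts of this pathway, which reduces recognition by T cells.

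Transcripts of the class I molecule itself were higher in A2780 cells with r-CRMP2, and those of the transporter were not. The 4 heavy chain genes and B2M rose by 0.82 to 0.96 on the log2 scale and TAPBP rose by 0.49, whereas TAP2 fell by 0.40, NLRC5 fell by 0.59 and TAP1 did not pass the test. Levels are given as CPM, counts brought to a common library size with TMM factors, which correct for a shift in composition between libraries. In edgeR's quasi-likelihood test with a Benjamini-Hochberg adjusted p threshold of 0.05, 6 of the 9 genes were therefore higher and 2 lower. Of all 16222 genes tested, 28.2% were higher and 30.1% lower, so calls in either direction were common in this comparison. None of the 9 passed a log2 fold change of 1 as well, which 5.12% of genes did upward and 8.86% downward. CPM of the groups did not overlap for any of the 9, with 7 higher and 2 lower, beside 30.9% and 33.3% of all genes tested. In a bulk library, a change in the share of cells that express a gene cannot be told apart from a change of its RNA per cell.

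Depth was between 21888530 and 25711353 counts per library, and TMM factors lay at 1.10 to 1.12 in untreated and 0.878 to 0.922 in r-CRMP2 libraries. The scaling bears on every fold change: the median over all genes tested was -0.03 on the log2 scale with TMM and -0.34 with library size alone, where 2171 genes were higher and 8449 lower in place of 4574 and 4875. The label of the cells was checked against marker genes. The keratins KRT8, KRT18 and KRT7 stood at 617 to 2024 TPM, the deposited count per gene length brought to a common total, PAX8 at 1.41 to 2.65 TPM, and WT1 and CDH1 under 1 TPM in every library. Of 10 leukocyte markers, 8 were under 1 TPM in every library, and PTPRC (CD45) reached at most 0.0501 TPM. The summed TPM of the leukocyte list went from 32.2-36.7 in untreated to 79.4-81.1 in r-CRMP2 libraries, nearly all of it CD68, an endolysosomal glycoprotein at 28.0 to 33.2 TPM in untreated and 77.5 to 78.3 TPM in r-CRMP2 libraries. Of 5 dendritic cell markers, 4 were under 1 TPM throughout. The sum of 8 fibroblast markers was 226-266 TPM in untreated and 158-170 TPM in r-CRMP2 libraries, with FAP under 1 TPM. COL1A1 carried most of that difference, at 160 to 191 TPM in untreated and 94.2 to 109 TPM in r-CRMP2 libraries, and with TMM scaling 2 markers of the list were called higher (COL1A2 and LUM) and 2 lower (COL1A1 and PDGFRB). The 9 epithelial and carcinoma markers summed to 4202-4412 TPM in untreated and 3439-3769 TPM in r-CRMP2 libraries.

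The heavy chains HLA-B and HLA-C are the classical, highly polymorphic presenters of peptide. HLA-B (chromosome 6, 31321643 to 31325022 in the deposited hg19 positions) was at 700, 655 and 662 CPM in untreated replicates 1, 2 and 3, and at 1237, 1413 and 1262 CPM in r-CRMP2 replicates 1, 2 and 3. HLA-C (chromosome 6, 31236526 to 31239913) was at 503, 513 and 489 CPM in the untreated libraries and at 906, 1029 and 914 CPM with r-CRMP2. For both genes every r-CRMP2 library was above every untreated one, with r-CRMP2 replicate 2 the highest. The means were 672.3 ± 24.0 and 1304 ± 95.6 CPM for HLA-B and 501.5 ± 12.1 and 949.6 ± 69.1 CPM for HLA-C (SD, n = 3). HLA-B rose by 0.96 on the log2 scale (SE 0.07, adjusted p = 6.3e-10 in edgeR's quasi-likelihood test), at percentile 94.3 of all genes tested. HLA-C rose by 0.92 (SE 0.06, adjusted p = 8.01e-10 in edgeR).

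HLA-E and HLA-F are non-classical heavy chains of low polymorphism: HLA-E presents leader peptides of other class I chains to the receptor NKG2A, and HLA-F is a ligand of natural killer cell receptors. HLA-E (chromosome 6, 30457183 to 30461982) was at 277, 267 and 260.0 CPM in the untreated libraries and at 447, 514 and 459 CPM with r-CRMP2. HLA-F (chromosome 6, 29691117 to 29695073) was at 22.2, 24.9 and 24.5 CPM in the untreated libraries and at 46.1, 48.5 and 44.7 CPM with r-CRMP2. Neither gene overlapped between the groups, and HLA-F had the lowest level of the 4 heavy chains in every library. The log2 fold change of HLA-E was 0.82 (SE 0.07, adjusted p = 4.06e-09 in edgeR) and that of HLA-F was 0.96 (SE 0.06, adjusted p = 3.84e-09 in edgeR). An antisense gene, HLA-F-AS1, overlaps HLA-F and had 28 to 74 counts per library. The library kit named in the methods does not mark strand, so reads from the stretch where the pair overlaps cannot be told apart.

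B2M encodes the invariant light chain, without which classical heavy chains do not reach the surface. B2M (chromosome 15, 45003685 to 45010357) was at 1278, 1279 and 1300 CPM in the untreated libraries and at 2207, 2672 and 2137 CPM with r-CRMP2. The untreated libraries lay close together and all r-CRMP2 libraries stood above them, with replicate 2 apart from the other two. The means were 1285 ± 12.6 and 2339 ± 291 CPM (SD, n = 3), a log2 fold change of 0.86 (SE 0.10, adjusted p = 1.48e-08 in edgeR's quasi-likelihood test). Without r-CRMP2 replicate 2 or any other single library, the log2 fold change of B2M lay between 0.77 and 0.93.

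**Figure D1:**
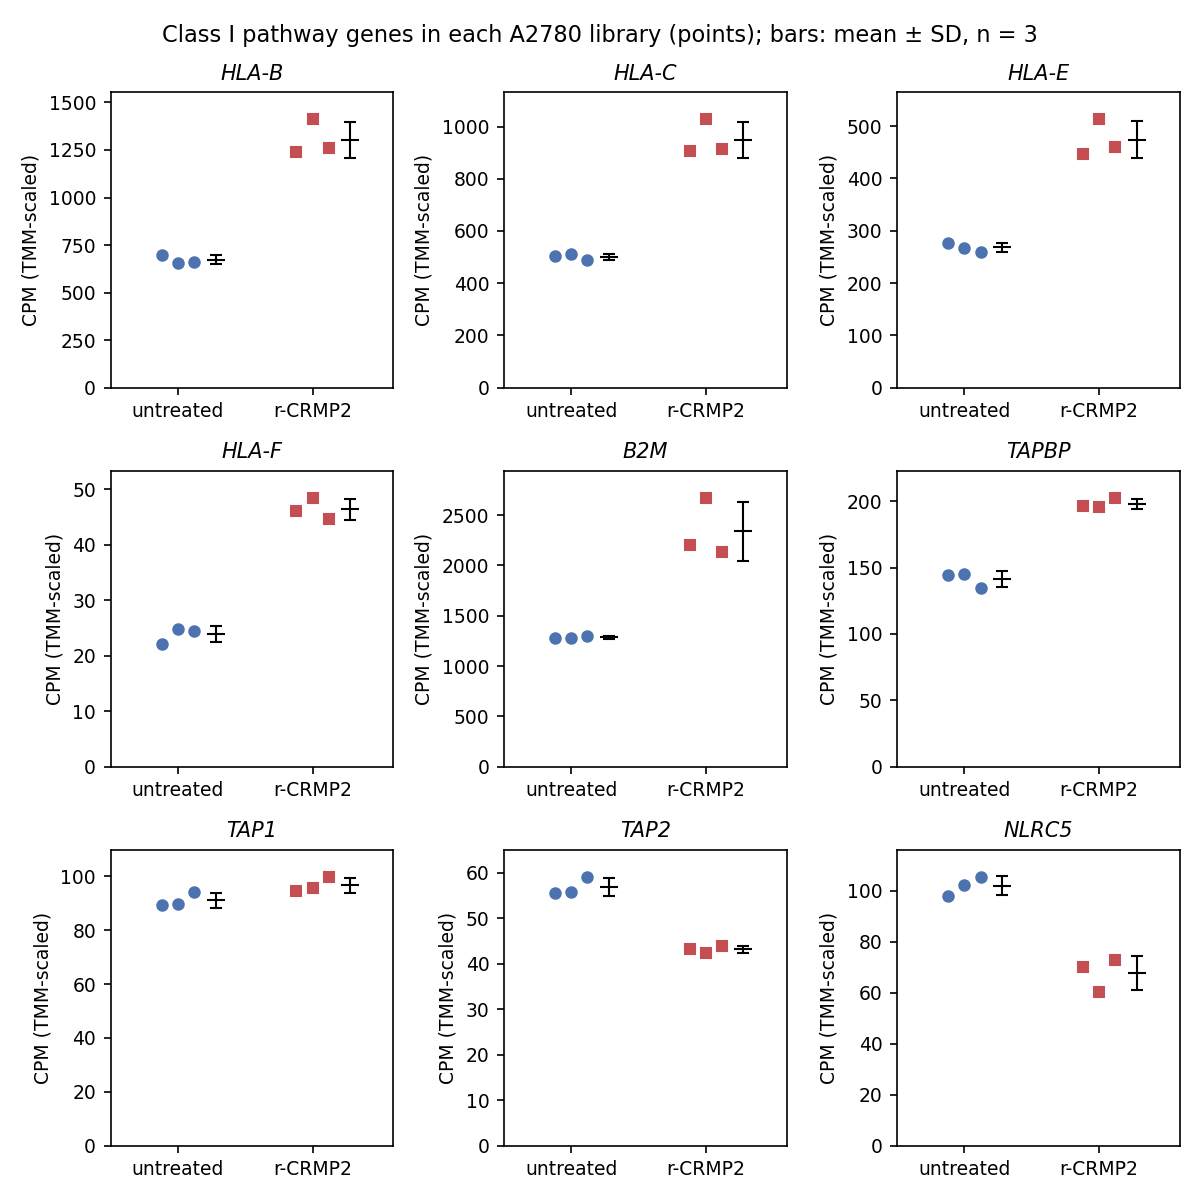
TMM-scaled CPM (vertical axes, from 0) of the 9 class I pathway genes in the 3 untreated (circles) and 3 r-CRMP2 (squares) libraries, with mean ± SD (n = 3) beside the points. The 5 genes of the class I molecule and TAPBP sit higher in every r-CRMP2 library, TAP2 and NLRC5 sit lower, and the TAP1 groups lie close together at 89.3 to 94.2 and 94.5 to 99.8 CPM.

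The proportion of heavy to light chain transcripts overlapped between the groups for all 4 heavy chain genes. It was measured as the log2 ratio of each heavy chain's count to that of B2M in the same library, which does not depend on scaling between libraries. The ratio for HLA-B was -0.94 ± 0.06 in untreated and -0.84 ± 0.08 in r-CRMP2 libraries (SD, n = 3), a difference of 0.10 with overlapping groups (two-sided exact permutation p = 0.2, adjusted p = 0.36 over 9 ratios). For HLA-C, HLA-E and HLA-F the differences were 0.06, -0.04 and 0.11, again with overlapping groups (exact permutation p = 0.3, 0.6 and 0.3). With 3 libraries against 3 the smallest p this test can give is 0.1, so no ratio could pass 0.05. Per unit of gene length, in TPM, B2M made up 58.2% ± 0.691 of the summed level of the 9 genes in untreated and 58.0% ± 1.44 in r-CRMP2 libraries (SD, n = 3), and HLA-B made up 18.6% ± 0.571 and 19.9% ± 0.601.

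The promoter sequences of these genes are shown because the 5 genes of the class I molecule changed together while NLRC5, the coactivator that acts at such promoters, changed the other way. Of the 9 genes, 7 were matched by symbol in RefSeq, all but HLA-E and NLRC5. Each line gives the 200 bases directly upstream of the RefSeq start in GRCh38.p14, a different build from that of the deposited positions, and capitals mark matches on either strand to the kappa B consensus, the IRF core AANNGAAA, the X2 half-site TGACG and the Y box CCAAT.
HLA-B (chr6:31357180-31357379, minus strand): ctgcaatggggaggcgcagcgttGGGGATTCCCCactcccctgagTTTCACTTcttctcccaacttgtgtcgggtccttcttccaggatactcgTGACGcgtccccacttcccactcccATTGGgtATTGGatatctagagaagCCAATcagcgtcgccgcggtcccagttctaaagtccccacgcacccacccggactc
HLA-C (chr6:31272093-31272292, minus strand): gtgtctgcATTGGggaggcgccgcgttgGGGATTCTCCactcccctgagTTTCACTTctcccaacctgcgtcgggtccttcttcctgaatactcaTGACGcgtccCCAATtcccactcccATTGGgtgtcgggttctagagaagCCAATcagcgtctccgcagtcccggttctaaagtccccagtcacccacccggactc
HLA-F (chr6:29723234-29723433, plus strand): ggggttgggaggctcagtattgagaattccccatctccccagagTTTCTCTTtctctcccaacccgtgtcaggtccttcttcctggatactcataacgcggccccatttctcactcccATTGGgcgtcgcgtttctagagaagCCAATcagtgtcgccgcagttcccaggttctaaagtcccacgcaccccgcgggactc
B2M (chr15:44711317-44711516, plus strand): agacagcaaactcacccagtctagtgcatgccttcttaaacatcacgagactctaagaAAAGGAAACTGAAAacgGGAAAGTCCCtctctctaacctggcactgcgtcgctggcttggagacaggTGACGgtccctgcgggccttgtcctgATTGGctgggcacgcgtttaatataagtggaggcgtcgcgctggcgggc
The stretches of HLA-B and HLA-C were identical at 87.8% of aligned positions, those of HLA-B and HLA-F at 80.8% and those of HLA-C and HLA-F at 80.2%. HLA-B, HLA-C and B2M held a match to each of the 4 motifs. HLA-F held the IRF core and Y box only. Among the 7 genes with a sequence, the kappa B consensus was found in 5 (HLA-B, HLA-C, B2M, TAP1 and TAPBP), beside 8.14% of 35114 promoters in RefSeq over the same length. The IRF core was found in all 7, beside 16.1% of promoters. A gene was counted if any of its starts held a match, whereas the promoters in RefSeq were counted start by start. TAP1 has a second start, not printed, which held no match to the 4 capitalized motifs. The X2 half-site was found in 4 (HLA-B, HLA-C, B2M and TAP2), beside 18.4%, and the Y box in 4 (HLA-B, HLA-C, HLA-F and B2M), beside 28.0%. The hypoxia response core, ACGTG or GCGTG, is not capitalized and was found in 4 (HLA-B, HLA-F, B2M and the second start of TAP1), beside 38.1%. A match is a description of the letters, not evidence that a factor binds there.

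TAP1 and TAP2 are the subunits of the transporter that supplies peptide to the class I molecule, and both lie in the class II region of chromosome 6 with the immunoproteasome genes PSMB8 and PSMB9. TAP1 (32812986 to 32821748) was at 89.3, 89.6 and 94.2 CPM in the untreated libraries and at 94.5, 95.5 and 99.8 CPM with r-CRMP2. TAP2 (32789610 to 32806600) was at 55.6, 55.8 and 59.1 CPM in the untreated libraries and at 43.2, 42.3 and 44.0 CPM with r-CRMP2. TAP2 was lower in every r-CRMP2 library by a clear gap, while the TAP1 groups were separated by less than 1 CPM. The log2 fold change of TAP2 was -0.40 (SE 0.03, adjusted p = 4.66e-05 in edgeR), and that of TAP1 was 0.09 (SE 0.03, adjusted p = 0.245 in edgeR). With library size alone TAP1 turned over, to -0.23 (adjusted p = 0.00416 in edgeR), which was still above the all-gene median of -0.34 under that scaling. The log2 ratio of TAP1 to TAP2 counts was 0.68 ± 0.01 in untreated and 1.16 ± 0.03 in r-CRMP2 libraries (SD, n = 3), a difference of 0.48 with no overlap (exact permutation p = 0.1, adjusted p = 0.225 over 9 ratios, the smallest p possible being 0.1).

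TAPBP, tapasin, bridges the transporter to the empty class I molecule and edits its peptide cargo. TAPBP (chromosome 6, 33267471 to 33282164) was at 144, 145 and 134 CPM in the untreated libraries and at 197, 195 and 202 CPM with r-CRMP2. It was higher in every r-CRMP2 library, with a log2 fold change of 0.49 (SE 0.04, adjusted p = 1.25e-06 in edgeR), and with library size alone of 0.18 (adjusted p = 0.0129 in edgeR). The log2 ratio of TAP1 to TAPBP counts was -0.63 ± 0.11 in untreated and -1.04 ± 0.02 in r-CRMP2 libraries (SD, n = 3), with no overlap (exact permutation p = 0.1). The promoters of these loading genes, from the same source and with the same marks, differ from those of the heavy chains in that none of the 3 holds a Y box match.
TAP1 (chr6:32853705-32853904, minus strand): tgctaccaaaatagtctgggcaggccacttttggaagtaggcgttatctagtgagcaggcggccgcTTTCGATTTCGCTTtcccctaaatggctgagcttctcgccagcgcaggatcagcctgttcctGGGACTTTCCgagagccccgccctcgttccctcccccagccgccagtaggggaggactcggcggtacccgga
TAP2 (chr6:32838740-32838939, minus strand): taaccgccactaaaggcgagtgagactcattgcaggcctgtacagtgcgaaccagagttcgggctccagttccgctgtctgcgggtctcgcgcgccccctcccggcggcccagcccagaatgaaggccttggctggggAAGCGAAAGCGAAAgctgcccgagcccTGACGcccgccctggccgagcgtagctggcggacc
TAPBP (chr6:33314079-33314278, minus strand): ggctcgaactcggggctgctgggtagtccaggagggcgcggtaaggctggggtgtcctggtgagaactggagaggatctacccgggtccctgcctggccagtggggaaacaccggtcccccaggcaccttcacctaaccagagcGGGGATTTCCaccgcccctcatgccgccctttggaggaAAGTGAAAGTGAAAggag
TAP1 and TAPBP held the kappa B consensus and TAP2 did not, and each of the 3 held overlapping IRF cores. In the deposited positions, TAP1 is 189 bases from PSMB9 on one side and 273 bases from PSMB8 on the other.

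NLRC5, the class I transactivator, is itself induced by interferon gamma and binds the SXY module through the RFX factors. NLRC5 (chromosome 16, 57023397 to 57117436) was at 98.0, 102 and 105 CPM in the untreated libraries and at 70.2, 60.1 and 72.9 CPM with r-CRMP2. It was lower in every r-CRMP2 library, with r-CRMP2 replicate 2, the highest in B2M and HLA-B, the lowest in NLRC5. The log2 fold change was -0.59 (SE 0.09, adjusted p = 1.15e-06 in edgeR's quasi-likelihood test), at percentile 19.2 of all genes tested. Thus the coactivator and the heavy chain genes moved in opposite directions in the same libraries.

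**Figure D2:**
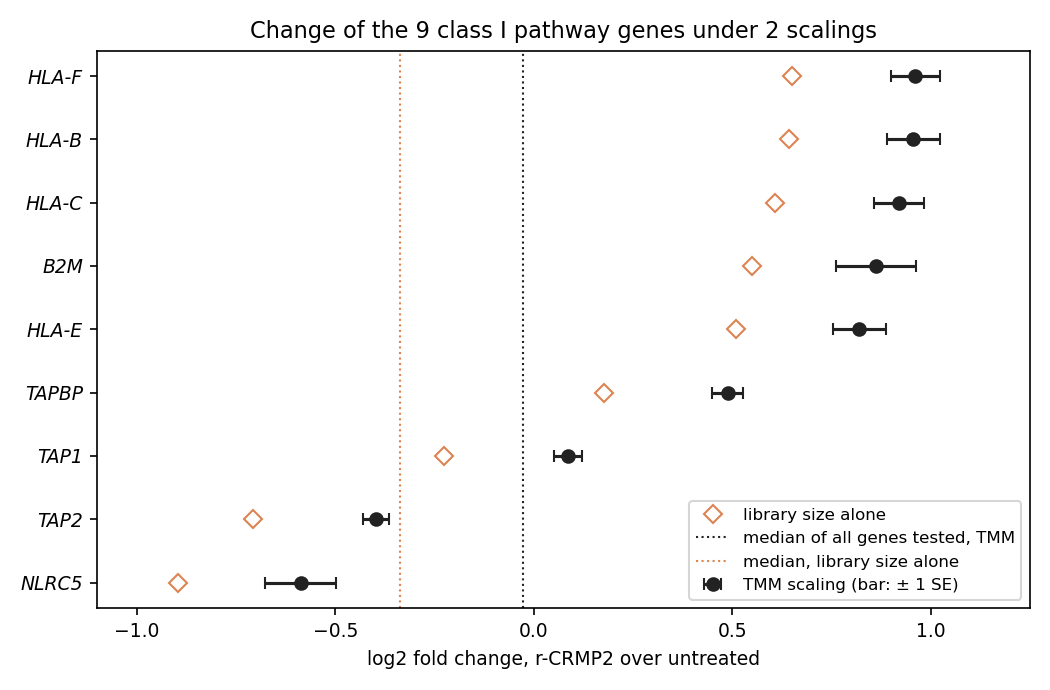
Log2 fold changes (horizontal axis, r-CRMP2 over untreated) of the 9 genes with TMM scaling (filled points, bars ± 1 SE) and with library size alone (open diamonds), with the median of all genes tested under each as a dotted line (-0.03 and -0.34). The order of the genes is the same under both scalings, and TAP1 alone crosses 0, from 0.09 to -0.23.

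In levels per length, the untreated order was B2M at a mean of 3174 TPM, HLA-B at 1017, HLA-C at 771, HLA-E at 245, TAPBP at 84.3, TAP1 at 70.6, NLRC5 at 36.3, HLA-F at 34.2 and TAP2 at 22.3 TPM. The ranges of NLRC5 (34.4 to 37.7 TPM) and HLA-F (31.3 to 36.1 TPM) overlapped, and no other neighbours did. With r-CRMP2 the order was B2M at 4593 TPM, HLA-B at 1571, HLA-C at 1162, HLA-E at 345, TAPBP at 94.4, TAP1 at 59.8, HLA-F at 53.1, NLRC5 at 19.3 and TAP2 at 13.5 TPM, with no overlap between neighbours. HLA-F and NLRC5 thus changed places. TPM are not TMM-scaled, and on that scale TAP1 was lower, not higher, with r-CRMP2. As a share of the counts of a library, the 9 genes together took 0.347% to 0.351% in untreated and 0.468% to 0.533% in r-CRMP2 libraries.

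Gene length differed between genes that rose and genes that fell, with exceptions. The 4 heavy chain genes and B2M are 987 to 2662 bases long in the deposited annotation, and the falling genes TAP2 and NLRC5 are the longest of the 9, at 6218 and 6835 bases. TAPBP, which rose, is longer (4081 bases) than TAP1 (3145 bases), which did not pass. Among the list genes, ERAP1 rose at 7592 bases, and RFXANK and PSMB8 fell at 1632 and 1773 bases. Over all genes tested, the median log2 fold change was 0.14 for genes of up to 1000 bases, 0.00 for those of 1000 to 2000 bases and -0.06 in each longer class. Taken relative to the median of their length class, the log2 fold changes were 0.73 for B2M, 0.95 for HLA-B, 0.55 for TAPBP, -0.34 for TAP2 and -0.53 for NLRC5. The part of length in the result was not tested beyond these values. Exactly shared sequence was small for the class I molecule in the reference, taking 1 transcript of each gene. No window of 150 bases in the 4 heavy chain genes, and none in B2M, occurred exactly in another gene's transcripts (GENCODE v29). For windows of 50 bases the share was 1.70% to 6.71% for the heavy chains and 0% for B2M. Near matches, and any alleles of A2780 that differ from the reference, were not covered, so how reads were shared was not measured. In TAP2, 34.6% of windows of 150 bases occurred exactly in transcripts annotated to another gene.

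The other loading factors rose or did not pass the test. Of 8 genes of peptide loading and trimming, 4 were higher and none lower, beside 28.2% and 30.1% of all genes tested. Their median log2 fold change was 0.25 (all genes tested: -0.03). PDIA3 encodes ERp57, the partner of tapasin, and was at 600.0, 562 and 576 CPM in the untreated libraries and at 836, 957 and 878 CPM with r-CRMP2 (log2 fold change 0.62, SE 0.06, adjusted p = 1.55e-07 in edgeR). ERAP1, which trims peptides in the endoplasmic reticulum, was at 14.6, 17.7 and 15.1 CPM against 22.5, 23.2 and 26.1 CPM (log2 fold change 0.60, SE 0.11, adjusted p = 2.66e-05 in edgeR). Groups did not overlap for either gene. The remaining risers, named after their values were seen, were the chaperones CANX (calnexin, 0.53) and CALR (calreticulin, 0.49). With library size alone, 4 of the list were higher and 2 lower, where 2171 of all 16222 genes were higher and 8449 lower. Without untreated replicate 1 there was 1 lower.

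Proteasome genes were called in both directions. Of the 5 immunoproteasome and PA28 genes, 1 was higher and 2 lower, with a median log2 fold change of 0.05, beside 28.2% and 30.1% of all genes tested. PSMB8, an immunoproteasome catalytic subunit, was at 45.5, 50.8 and 54.8 CPM in the untreated libraries and at 38.8, 45.1 and 35.1 CPM with r-CRMP2, a log2 fold change of -0.35 (adjusted p = 0.00265 in edgeR). PSME1, of the PA28 activator, rose by 0.28 (adjusted p = 0.00118 in edgeR) and its partner PSME2 fell by 0.22 (adjusted p = 0.0335 in edgeR). PSME2 lost its call without untreated replicate 3 (-0.16), r-CRMP2 replicate 1 (-0.18) or r-CRMP2 replicate 3 (-0.16), and in DESeq2 and with RLE size factors (both -0.20). With library size alone PSME1 was at -0.03. PSMB9 and PSMB10, the other immunoproteasome subunits, had log2 fold changes of 0.14 and 0.05 and did not pass.

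Each immunosubunit replaces a constitutive subunit, and their ratios within a library differed from pair to pair. The log2 ratio of PSMB8 to PSMB5 counts was -0.49 ± 0.17 in untreated and -0.89 ± 0.10 in r-CRMP2 libraries (SD, n = 3; exact permutation p = 0.1), lower in all 3. That of PSMB9 to PSMB6 was -3.24 ± 0.17 and -2.77 ± 0.08 (SD, n = 3; exact permutation p = 0.1), higher in all 3, beside a fall of 0.32 in PSMB6 itself (adjusted p = 0.00056 in edgeR). PSMB10 to PSMB7 overlapped between the groups (difference -0.08, exact permutation p = 0.5). Reads of PSMB8 cannot be told apart from those of the overlapping antisense gene PSMB8-AS1, which had 175 to 253 counts per library. Of 28 other core proteasome genes, 4 were higher and 10 lower (all genes tested: 28.2% and 30.1%) with a median of -0.08. With library size alone none was higher and 25 were lower, where 2171 of all 16222 genes were higher and 8449 lower. PSMD1 and PSMC4 of the 19S cap had the largest falls (both -0.53), and PSMC6 and PSMA6 the largest rises (0.43 and 0.38), which did not pass with library size alone.

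**Figure D3:**
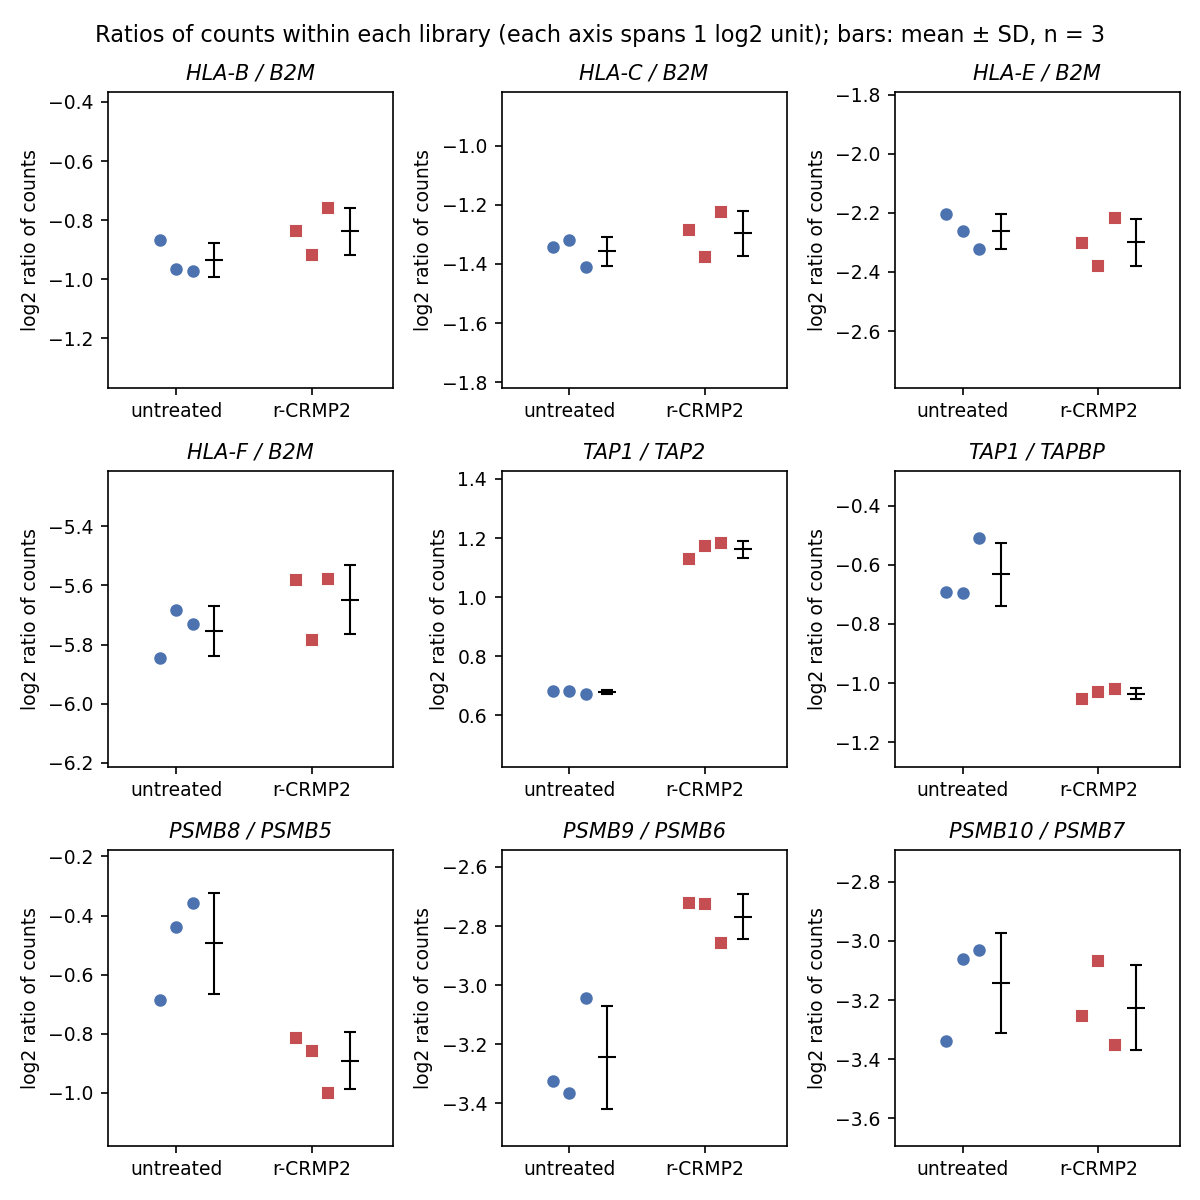
Log2 ratios of counts of gene pairs within each library (vertical axes, each spanning 1 log2 unit) for the 3 untreated (circles) and 3 r-CRMP2 (squares) libraries, with mean ± SD (n = 3). The 4 heavy chain to B2M ratios overlap between groups, whereas TAP1 to TAP2 and PSMB9 to PSMB6 sit higher, and TAP1 to TAPBP and PSMB8 to PSMB5 sit lower, in every r-CRMP2 library.

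Of 9 genes of the SXY enhanceosome, on which NLRC5 acts, and CIITA, 1 was higher and 4 lower, beside 28.2% and 30.1% of all genes tested, with a median log2 fold change of -0.26. With library size alone none was higher and 7 were lower, where 2171 of all 16222 genes were higher and 8449 lower. RFX5, the DNA-binding subunit of the RFX complex, was at 86.1, 91.8 and 96.6 CPM in the untreated libraries and at 46.7, 40.5 and 39.8 CPM with r-CRMP2. RFXANK, its ankyrin-repeat partner, was at 23.0, 27.3 and 27.4 CPM against 13.9, 13.5 and 15.5 CPM. Both were lower in every r-CRMP2 library, with log2 fold changes of -1.11 (SE 0.09, adjusted p = 3.43e-10 in edgeR) and -0.85 (adjusted p = 3.63e-07 in edgeR). NFYC (-0.40) and ATF1 (-0.29), named after their values were seen, also fell. NFYB, an NF-Y subunit, rose by 0.31 (adjusted p = 0.0152 in edgeR), a call lost without untreated replicate 2 (0.28), untreated replicate 3 (0.23) or r-CRMP2 replicate 2 (0.26), and its log2 fold change was -0.00461 with library size alone. CIITA, the class II transactivator, was at 1.44 to 2.53 CPM in untreated and 1.52 to 2.25 CPM in r-CRMP2 libraries.

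Among 12 tested interferon and NF-kB factors, 5 were higher and 3 lower, beside 28.2% and 30.1% of all genes tested. Their median log2 fold change was 0.10. NFKB2, the p100/p52 subunit of the alternative NF-kB pathway, was at 55.0, 57.0 and 47.8 CPM in the untreated libraries and at 101, 98.7 and 101 CPM with r-CRMP2 (log2 fold change 0.91, SE 0.08, adjusted p = 2.53e-09 in edgeR). Its partner RELB was at 4.10, 3.42 and 3.95 CPM against 6.55, 7.13 and 6.57 CPM (0.82, SE 0.09, adjusted p = 0.000108 in edgeR). Neither gene overlapped between the groups. RELA (0.69), IRF2 (0.66) and IRF7 (0.59), named after their values were seen, also rose. IRF3, which drives the interferon beta gene, fell by 0.45 (adjusted p = 5.53e-05 in edgeR), and IRF1, an activator of class I, TAP1 and PSMB9 promoters, fell by 0.42 (adjusted p = 0.0193 in edgeR). The IRF1 call was lost without untreated replicate 2 (-0.39), untreated replicate 3 (-0.36) or r-CRMP2 replicate 3 (-0.30). With library size alone, 5 factors were higher and 6 lower, where 2171 of all 16222 genes were higher and 8449 lower.

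Of 9 interferon receptor and kinase genes tested, 4 were higher and 3 lower, beside 28.2% and 30.1% of all genes tested. Their median log2 fold change was -0.09. IFNAR1, a chain of the type I interferon receptor, was at 32.2, 31.8 and 31.0 CPM in the untreated libraries and at 18.6, 13.9 and 14.2 CPM with r-CRMP2, a log2 fold change of -1.02 (SE 0.14, adjusted p = 5.44e-08 in edgeR). SOCS3, a feedback inhibitor of JAK-STAT signaling, was at 104, 103 and 104 CPM against 173, 233 and 224 CPM, a log2 fold change of 1.02 (SE 0.14, adjusted p = 7.72e-09 in edgeR). JAK1 rose by 0.40 (adjusted p = 1.86e-05 in edgeR), which did not pass with library size alone (0.09). JAK2, at 3.83 to 4.35 CPM in untreated and 2.87 to 3.18 CPM in r-CRMP2 libraries, fell by 0.44 (adjusted p = 0.034 in edgeR). That call was lost in DESeq2 (-0.42), without the low-count filter (-0.45), and without untreated replicate 1 (-0.40) or 3 (-0.44) or r-CRMP2 replicate 1 (-0.42) or 3 (-0.40). With library size alone, 1 gene of this list was higher and 5 lower, where 2171 of all 16222 genes were higher and 8449 lower. In DESeq2, without the low-count filter and without r-CRMP2 replicate 3, 1 gene of the list was lower.

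**Figure D4:**
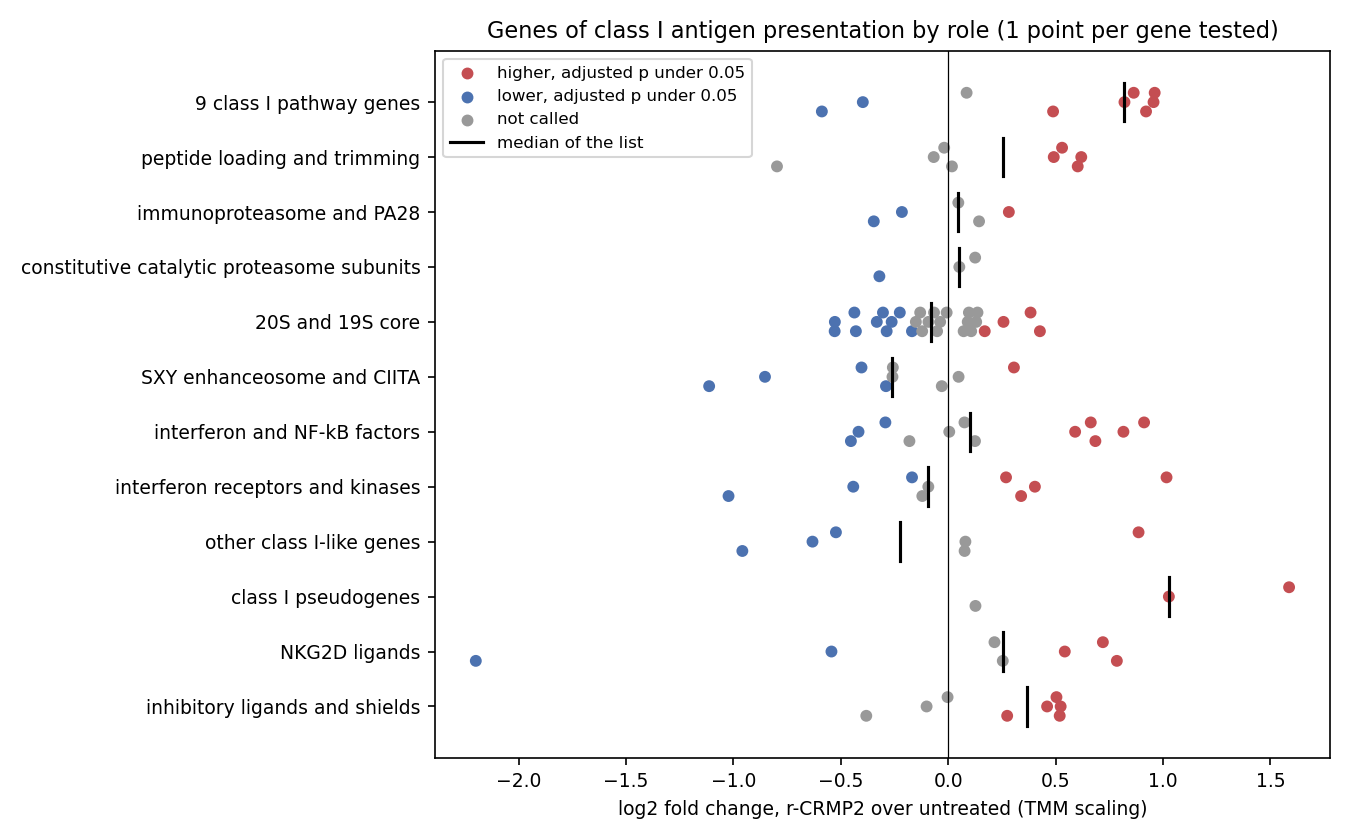
Log2 fold changes (horizontal axis, r-CRMP2 over untreated, TMM scaling) of every tested gene of the lists drawn, 1 row per list and 1 point per gene. Points are colored by call at an adjusted p of 0.05, with a bar at the list's median. The class II and class I turnover lists are not drawn. The 9 class I genes have a median of 0.82, against 0.25 for peptide loading, 0.05 for the immunoproteasome and -0.26 for the SXY factors.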

How the data were processed

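RNA of 6 libraries (3 untreated, 3 r-CRMP2) was compared. The authors deposited, per library, raw counts of reads on 44591 genes and TPM, which are counts per gene length brought to a common total. The submitters' processing notes name FastQC, HISAT2, DESeq2 and hg19. The counting tool, the annotation and the strand setting are not given in the sources used here. Counts were filtered (edgeR's filterByExpr), TMM-scaled and tested over all genes by quasi-likelihood in edgeR 4.0.16 (with limma 3.58.1 under R 4.3.3), Benjamini-Hochberg adjusted, with thresholds of 0.05 and, where stated, 1 on the log2 scale. Standard errors reflect how log2 CPM (prior count 2) varied between replicates. Ratios used a pseudocount of 0.5 and exact permutation tests. The script was tested on simulated data.

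Genes and lists were chosen with earlier results of these data known. Named were the 9 genes, from each list the 2 largest rises and falls among called genes, the genes of the ratios, and the 3 genes most alike to B2M and to NLRC5. Some genes that meet this rule are left out of the text. In the files, 27 names read as dates, and 2 names occurred more than once. The MARCH genes of the turnover list are not analysed here. Results were recomputed after leaving out each library, with a replicate block, with a minimum of 10 counts per library, without filtering, with scaling by library size alone or by RLE, with a pseudocount of 2, and with DESeq2 (1.42.0). No pair of replicates agreed within sampling noise (chi-square per degree of freedom 3.86 to 11.3). Precision is limited by 3 libraries per group.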

Additional observations from a re-analysis of the deposited data

How the results depend on the processing

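The counts of 6 genes higher and 2 lower among the 9 held in DESeq2, with RLE size factors, without the low-count filter, with a minimum of 10 counts per library and at each omission of a library. The exception was library size alone, with 6 higher and 3 lower, where 2171 of all 16222 genes were higher and 8449 lower. TAP1 there turned to -0.23, PSME1 to -0.029, NFYB to -0.00461, PSMB5 to -0.26 and PSMB7 to -0.19. These turns come with the all-gene median of -0.34. Leaving out single libraries gave 0.90 to 1.01 for HLA-B, 0.87 to 0.97 for HLA-C, 0.77 to 0.87 for HLA-E, 0.91 to 0.99 for HLA-F, 0.77 to 0.93 for B2M, 0.07 to 0.11 for TAP1, -0.41 to -0.37 for TAP2, 0.45 to 0.51 for TAPBP and -0.64 to -0.50 for NLRC5, with 6 higher and 2 lower each time.

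With the replicate number as a block, 6 of the 9 were higher and 2 lower, and the values were 0.95 for HLA-B, 0.86 for B2M, 0.09 for TAP1 (adjusted p = 0.315 in edgeR) and -0.59 for NLRC5. Over all genes the block gave 4456 higher and 4774 lower. Between libraries of the same number, the deviations from group means correlated across genes at -0.02, 0.0038 and -0.03, which shows no shared effect of the number. Libraries of unlike number were not compared, so a paired setup of the cultures was not tested. Depth limits the low genes, such as HLA-G and CD74 near 1 CPM.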

Other observations

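Ligands of NKG2D, the activating receptor of natural killer and CD8 T cells, moved in both directions. Of 7 tested, 3 were higher and 2 lower, beside 28.2% and 30.1% of all genes tested, with a median log2 fold change of 0.25. With a minimum of 10 counts per library, 1 was lower. RAET1G was at 10.6, 7.54 and 8.52 CPM in the untreated libraries and at 15.3, 16.8 and 13.9 CPM with r-CRMP2 (0.79, adjusted p = 2.68e-05 in edgeR). MICB went from 10.9 ± 0.685 to 18.0 ± 1.01 CPM (SD, n = 3), without overlap (0.72, adjusted p = 4.69e-06 in edgeR). ULBP1, a GPI-anchored ligand, was at 1.65, 1.55 and 1.17 CPM against 0.187, 0.506 and 0.261 CPM, a log2 fold change of -2.20 (adjusted p = 0.000106 in edgeR). ULBP3 fell by 0.54 (adjusted p = 0.0135 in edgeR), a call lost without untreated replicate 1 (-0.46) or r-CRMP2 replicate 2 (-0.40).

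Of 8 tested inhibitory ligands and complement shields, 5 were higher and none lower, beside 28.2% and 30.1% of all genes tested. With library size alone 4 were higher and 2 lower, where 2171 of all 16222 genes were higher and 8449 lower. CD276 (B7-H3) was at 254, 244 and 238 CPM in the untreated libraries and at 336, 348 and 373 CPM with r-CRMP2 (0.52, adjusted p = 7.35e-07 in edgeR). CD46, a cofactor for complement inactivation, also rose (0.52, adjusted p = 7.55e-07 in edgeR), as did CD55, CD59 and CD47, named after their values were seen (0.50, 0.46 and 0.27). CD274 (PD-L1) was at 0.392 to 1.59 CPM over the 6 libraries and was not called.

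Other class I-like genes went both ways: of 6 tested, 1 was higher and 3 lower, beside 28.2% and 30.1% of all genes tested. With library size alone none was higher and 4 were lower, where 2171 of all 16222 genes were higher and 8449 lower. CD1D, which presents lipids, fell by 0.96 (adjusted p = 0.00172 in edgeR). MR1, which presents metabolites, fell by 0.63 (adjusted p = 0.0236 in edgeR) with overlapping groups, a call lost without untreated replicate 1 (-0.58), untreated replicate 3 (-0.46) or r-CRMP2 replicate 2 (-0.44). HLA-G rose by 0.89 (adjusted p = 0.0191 in edgeR) at a mean of 1.01 to 1.88 CPM, a call lost without untreated replicate 1 (0.64) or r-CRMP2 replicate 2 (0.70) and with library size alone (0.57). Of 3 class I pseudogenes tested, HLA-H rose by 1.03 and HLA-K by 1.59 (adjusted p = 3.53e-10 and 0.000495 in edgeR). Both resemble the heavy chain genes in sequence, and reads shared with them were not measured here.

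Class II genes were near the limit of detection, with 3 of 12 tested. CD74, the invariant chain, rose from a mean of 0.804 to 1.62 CPM (1.01, adjusted p = 0.0162 in edgeR), a call lost without untreated replicate 3 (0.77) or r-CRMP2 replicate 1 (0.88) and with library size alone (0.71). SYVN1, a ubiquitin ligase of the endoplasmic reticulum, fell by 0.29 (adjusted p = 0.00274 in edgeR), and NBR1 of the same turnover list did not pass.

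Among 12712 genes (mean normalized count 50 or more), those whose log2 CPM was most alike to NLRC5 over the 6 libraries were VGLL3, LYPD6 and SORBS2, with log2 fold changes of -0.59, -0.45 and -0.91. Likeness was by Pearson correlation over libraries that fall into 2 groups, so it mostly reflects the difference between the groups.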
